A study of Mus musculus with 8 samples.

Results

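The PAX genes encode transcription factors that bind DNA through a paired domain, and the 6 described here (*Pax2*, *Pax3*, *Pax5*, *Pax6*, *Pax7* and *Pax8*) are those used in the developing neural tube. They were taken as the rows whose gene symbol is one of these names, which gave 6 of the 24849 genes in the files. RNA was measured in mouse embryonic stem cells (mESCs) of the MPI-II line, of 129S2/SvPas. background, either wild type or *Pcgf5*-/-. Each genotype was sampled at day 0, when the cells grow on feeder cells with LIF and 2 kinase inhibitors (2i), and at day 6 of neural differentiation in N2B27 medium, with 2 samples in each of the 4 groups. *Pcgf5* encodes a subunit of a variant Polycomb repressive complex 1 (PRC1), and it was disrupted in its second exon with a TALEN pair, after which single colonies were picked. The sources used here do not say how many colonies the *Pcgf5*-/- samples come from, so genotype and colony cannot be told apart, and p-values measure the spread between these samples only.

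PAX genes act early in giving regions of the neural tube their identity. PAX6 is used in the forebrain, the eye and the progenitors of the spinal cord, PAX3 and PAX7 in the dorsal neural tube and the neural crest, and PAX2, PAX5 and PAX8 at the midbrain-hindbrain boundary and in some interneurons of the spinal cord. Outside the nervous system PAX3 and PAX7 act in muscle precursors, PAX2 and PAX8 in the kidney, PAX8 in the thyroid, PAX5 in B cells and PAX6 in the pancreas. Many developmental regulators of this kind are classic Polycomb target genes in mESCs and have CG-rich promoters.

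Values are FPKM, fragments scaled by transcript length and by library size, so levels can be set side by side between genes. In mm9 coordinates the 6 loci in the files are *Pax3* at chr1:78097842-78193711 on the minus strand, *Pax8* at chr2:24276071-24331119 on the minus strand, *Pax6* at chr2:105509053-105537521 on the plus strand, *Pax5* at chr4:44544378-44723312 and *Pax7* at chr4:139293996-139388883, both on the minus strand, and *Pax2* at chr19:44831884-44912359 on the plus strand. RefSeq promoter windows (GRCm38.p6, 250 bases before to 50 bases after a start site) were at hand for 5 of the 6 genes, all but *Pax3*, with 8 windows in all, and each matched the mm9 genome exactly once. The windows below are those of *Pax6* (its upstream start, chr2:105508803-105509102, plus strand) and *Pax7* (chr4:139388834-139389133, minus strand), which at day 6 were lower in *Pcgf5*-/- cells, and of *Pax8* (chr2:24331070-24331369, minus strand), which was not. They are written 5′ to 3′ with every CG pair in capitals.
Pax6: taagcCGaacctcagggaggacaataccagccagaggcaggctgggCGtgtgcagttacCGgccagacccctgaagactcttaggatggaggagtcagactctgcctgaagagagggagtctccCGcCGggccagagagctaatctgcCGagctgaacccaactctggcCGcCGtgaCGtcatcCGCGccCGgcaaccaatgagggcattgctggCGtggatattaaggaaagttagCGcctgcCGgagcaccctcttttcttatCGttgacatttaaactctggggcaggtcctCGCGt
Pax7: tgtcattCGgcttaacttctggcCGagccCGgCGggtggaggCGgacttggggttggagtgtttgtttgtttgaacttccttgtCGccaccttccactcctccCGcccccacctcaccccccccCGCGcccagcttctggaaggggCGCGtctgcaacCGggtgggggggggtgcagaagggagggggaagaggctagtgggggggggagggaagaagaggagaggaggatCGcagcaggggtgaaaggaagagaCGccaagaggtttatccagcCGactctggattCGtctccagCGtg
Pax8: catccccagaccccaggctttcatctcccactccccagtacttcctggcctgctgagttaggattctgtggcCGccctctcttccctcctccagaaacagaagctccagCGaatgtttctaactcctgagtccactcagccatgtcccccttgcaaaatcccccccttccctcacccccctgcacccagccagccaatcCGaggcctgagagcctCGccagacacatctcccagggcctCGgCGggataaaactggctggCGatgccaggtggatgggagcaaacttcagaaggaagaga
The *Pax6* window holds 18 CG pairs, a number that 29.7% of all 32851 windows in the RefSeq table reach or pass, and the *Pax7* window holds 17 (31.4%). The *Pax8* window holds 7 CG pairs, which is the median of all windows, and 52.1% of windows reach it. Across the 8 windows of the 5 genes the count ran from 7 to 30, with both ends in *Pax2*, which has 3 start sites. CG is its own reverse complement, so the count is the same on both strands. At least 1 CG pair is in 94.6% of all windows, and these counts are a description of the letters only.

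The labels were checked first. *Pcgf5* had 5.18 and 3.63 FPKM in the wild type samples at day 0 against 1.28 and 1.84 in *Pcgf5*-/-, and 9.16 and 5.06 against 0.669 and 0.457 at day 6. Both knockout samples were below both wild type samples on each day, and the day 6 difference was -2.33 ± 0.28 (SE) on the log2(FPKM + 1) scale (limma adjusted p = 0.00421). At day 0 it was -1.07 (limma adjusted p = 0.105), so the call was made at day 6 only. FPKM counts the whole transcript and the lesion is in the second exon, so these values do not measure intact transcript alone. The mESC markers summed to between 2074 and 2293 FPKM in the day 0 libraries, and 7 markers of neural progenitors summed to 662 and 702 FPKM in wild type at day 6. Markers of feeder fibroblasts summed to between 155 and 549 FPKM at day 0 and to between 10.9 and 32.5 at day 6. Libraries differed in relative depth by up to 1.30 times, as read from the steps between low values.

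At day 0 the PAX genes were close to silent in both genotypes. *Pax6*, the only one of the 6 with a mean over 1 FPKM at that time, had 1.56 and 0.862 FPKM in wild type against 1.27 and 1.85 in the knockout. These values overlapped, and the fitted difference was 0.22 ± 0.21 (SE) on the log2 scale (limma adjusted p = 0.640). The sign of that difference turned without wild type replicate 2 (-0.01). *Pax2* had 0.094 and 0.099 FPKM in wild type against 0.042 and 0.066 in the knockout, a fitted difference of -0.06 (limma adjusted p = 0.963). *Pax8* had 0.028 and 0.047 FPKM in wild type against 0.175 and 0.131 in the knockout, a fitted difference of 0.15 (limma adjusted p = 0.863). *Pax3* was listed at 0 in 1 of the 4 libraries and reached 0.073 FPKM in another. *Pax5* and *Pax7* were listed at 0 in all but *Pcgf5*-/- replicate 2, where they had 0.061 and 0.031 FPKM. Of the 5 PAX genes that could be tested, 0 were called between genotypes at day 0 by limma, and 0 had an unadjusted p under 0.05. For *Pax2*, *Pax3*, *Pax7* and *Pax8* the 1 added to FPKM before taking logs keeps any difference at day 0 close to 0. The lack of a call therefore does not show equal levels of these genes. Among the 13214 genes tested, 0.333% were called in this comparison, 44 genes, against 2294 at an unadjusted p under 0.05.

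**Figure D1:**
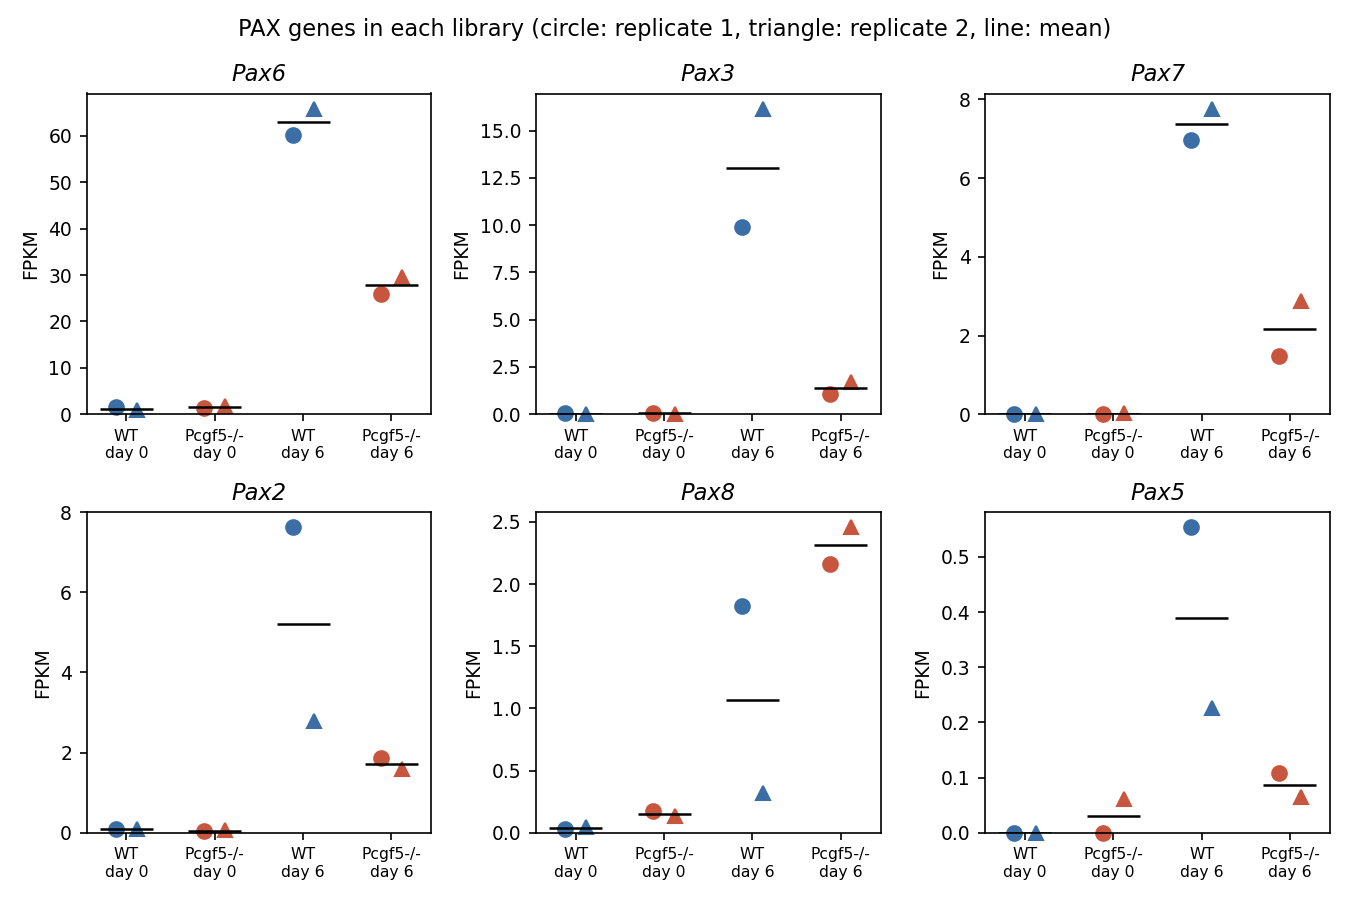
FPKM of the 6 PAX genes in each of the 8 libraries, with a separate linear axis for each gene, circles for replicate 1, triangles for replicate 2 and a line at the mean of each group of 2. At day 0 the values lie near 0, and at day 6 both Pcgf5-/- libraries lie below both wild type libraries for Pax6, Pax3, Pax7, Pax2 and Pax5 and above them for Pax8.

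Over 6 days in N2B27 medium wild type cells turned on PAX genes to very different levels. *Pax6*, a regulator of neurectoderm and of neurogenesis in radial glia, had 60.3 and 65.9 FPKM at day 6. *Pax3*, a factor of the dorsal neural tube, followed with 9.92 and 16.1 FPKM. Its close relative *Pax7*, also dorsal, had 6.98 and 7.76 FPKM, and *Pax2* had 7.63 and 2.78 FPKM. The ranges of *Pax7* and *Pax2* overlapped, so their order is not settled beyond the spread of the replicates. *Pax8* had 1.83 and 0.316 FPKM and *Pax5* 0.554 and 0.225 FPKM, and these 2 also overlapped. *Pax6* alone made up 69.1% and 70.8% of the summed FPKM of the 6 genes, which was 87.2 and 93.1.

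The rise from day 0 in wild type was called for all 5 PAX genes tested, while 34.2% of all genes tested were called higher in that comparison. On the log2(FPKM + 1) scale *Pax6* rose by 4.87 ± 0.21 (SE), *Pax3* by 3.72 ± 0.25, *Pax7* by 3.06 ± 0.23 and *Pax2* by 2.38 ± 0.34 (limma adjusted p = 5.83e-06, 2.1e-05, 3.37e-05 and 0.000702). *Pax8* rose by 0.89 ± 0.32 (limma adjusted p = 0.0441), a call that rests on wild type replicate 1 at day 6: without it the value was 0.34 (adjusted p = 0.172), and 9 other alternatives also ended it, with adjusted p-values of up to 0.134. *Pax2*, *Pax3*, *Pax7* and *Pax8* entered the test only through their day 6 levels, so that their rise was implied by the filter. The pseudocount of 1 also shrinks these differences, since the day 0 values are far below 1.

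*Pcgf5*-/- cells also turned on PAX genes, to a lower level in most cases. At day 6 *Pax6* had 25.9 and 29.7 FPKM, and *Pax8*, *Pax7*, *Pax2* and *Pax3* all lay between 1.06 and 2.87 FPKM. In the order of means *Pax8* (2.16 and 2.46 FPKM) came before *Pax7* (1.48 and 2.87), *Pax2* (1.86 and 1.59) and *Pax3* (1.06 and 1.69), and each of these overlapped its neighbour in that order. *Pax5* was lowest with 0.108 and 0.066 FPKM. *Pax3*, second to *Pax6* in wild type, thus had the lowest mean of the 5 genes tested in *Pcgf5*-/- cells. All 5 genes tested were called higher at day 6 than at day 0 in *Pcgf5*-/- cells, against 21.9% of all genes tested. As in wild type, *Pax2*, *Pax3*, *Pax7* and *Pax8* entered the test only through their day 6 levels, so the filter favoured a rise. The log2 differences were 3.50 for *Pax6*, 1.61 for *Pax7*, 1.52 for *Pax8*, 1.37 for *Pax2* and 1.17 for *Pax3* (limma adjusted p = 7.29e-05, 0.00188, 0.00874, 0.0171 and 0.00973). Without *Pcgf5*-/- replicate 2 at day 6 only 2 of the 5 kept that call, as *Pax2* (adjusted p = 0.0668), *Pax3* (0.0661) and *Pax8* (0.0533) lost it. The *Pax2* call was also lost without any of the other *Pcgf5*-/- libraries (adjusted p between 0.0611 and 0.0812).

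**Figure D2:**
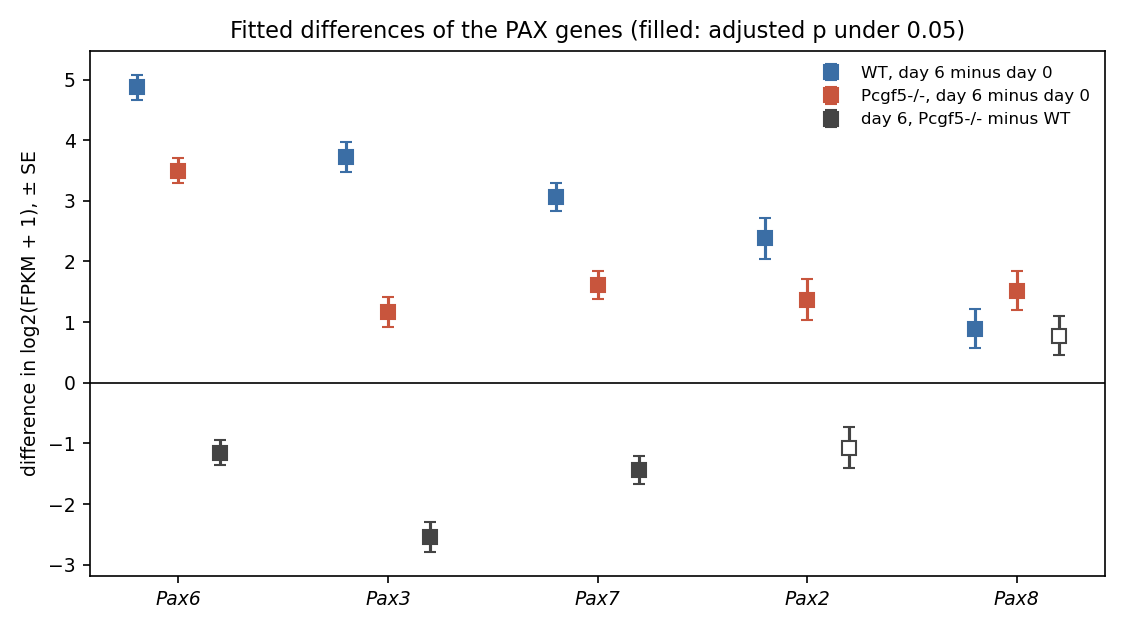
Fitted differences in log2(FPKM + 1) with their SE for the 5 PAX genes tested, from day 0 to day 6 in wild type (blue) and in Pcgf5-/- cells (red) and between genotypes at day 6 (grey), filled where the limma adjusted p is under 0.05. The fitted rise is smaller in Pcgf5-/- cells for Pax6, Pax3, Pax7 and Pax2, and the grey points of Pax2 and Pax8 are open.

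The direct comparison of genotypes at day 6 asks which PAX genes differ without *Pcgf5* during neural differentiation. *Pax3*, *Pax7* and *Pax6* were lower in *Pcgf5*-/- cells, 3 of the 5 tested, with 0 higher, where 7.05% of all genes tested were called lower and 9.57% higher. The median difference over the 5 was -1.15, and over all genes tested it was 0.02. Both *Pcgf5*-/- libraries lay below both wild type libraries for 4 of the 5 genes tested, a pattern that 28.8% of all genes tested show, and above them for *Pax8*, which 33.4% show. In bulk RNA, fewer cells that express a gene and less RNA per cell cannot be told apart.

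*Pax3* showed the largest difference of the PAX genes. It had 13.0 ± 4.41 FPKM (SD, n = 2) in wild type against 1.38 ± 0.445 (SD, n = 2) without *Pcgf5*, which is 10.6% of the wild type mean, and any single pair of libraries gives between 6.58% and 17.1%. The fitted difference was -2.54 ± 0.25 (SE; limma adjusted p = 0.00377), and only 0.0984% of all genes tested had one as low. It stayed past 0.05 under all 17 alternatives run, at values from -3.14 to -2.21 (adjusted p from 0.00237 to 0.0349).

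*Pax7*, the paralog of *Pax3*, had 7.37 ± 0.552 FPKM (SD, n = 2) in wild type against 2.18 ± 0.982 (SD, n = 2) without *Pcgf5*, 29.5% of the wild type mean. Its difference was -1.43 ± 0.23 (SE; limma adjusted p = 0.00886), and it reached 0.0505 without *Pcgf5*-/- replicate 1, the lower of the 2 knockout values. *Pax6* had 63.1 ± 3.96 FPKM (SD, n = 2) against 27.8 ± 2.63 (SD, n = 2), 44.1% of the wild type mean, and between 39.4% and 49.2% over single pairs. The *Pax6* difference was -1.15 ± 0.21 (SE; limma adjusted p = 0.0114). Its size barely moved without wild type replicate 2 (-1.09) or *Pcgf5*-/- replicate 1 (-1.06), but the adjusted p was then 0.0800 and 0.0774.

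*Pax2*, *Pax5* and *Pax8* form the other subfamily, and wild type replicates at day 6 differed more for these genes than for *Pax6* and *Pax7*. *Pax2* was 2.74 times and *Pax8* 5.77 times higher in wild type replicate 1 than in replicate 2. The 95% limits that cufflinks gives for the single libraries did not meet, at 6.62 to 8.41 and 2.25 to 3.29 FPKM for *Pax2*, and at 1.40 to 2.23 and 0.159 to 0.454 FPKM for *Pax8*. In the *Pcgf5*-/- libraries the same genes differed by 1.17 and 1.14 times. With that spread the *Pax2* difference of -1.07 ± 0.34 (SE) was not called (limma adjusted p = 0.0639), and it was -1.67 without wild type replicate 2 (adjusted p = 0.0134) but -0.47 without replicate 1 (adjusted p = 0.162). The *Pax8* difference of 0.78 ± 0.32 (SE) was not called either (limma adjusted p = 0.130), and it was 1.33 without wild type replicate 1 (adjusted p = 0.0102) but 0.23 without replicate 2 (adjusted p = 0.531). *Pax5* stayed under the minimum of 1 FPKM and was not tested.

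Other genes differed between the wild type replicates along with *Pax2* and *Pax8*. *En2* and *Lhx1*, which like *Pax2* are used in the midbrain-hindbrain region and in spinal interneurons, had 4.70 and 4.38 FPKM in wild type replicate 1 and 0.711 and 0.815 in replicate 2. *Cnpy1* (2.12 and 0.415 FPKM), *Gbx2* (13.7 and 8.30 FPKM) and *En1*, which are in the boundary list with *En2*, were also higher in replicate 1. *Wnt1*, a signal of the dorsal midline and the midbrain-hindbrain boundary, went the other way, with 0.497 and 3.02 FPKM. So did *Fgf8* (1.08 and 2.20) and *Lmx1b* (1.10 and 1.78) of the same boundary list. *Wt1* and *Gata3*, which are in the kidney list with *Lhx1*, had 2.05 and 2.19 FPKM in replicate 1 and 0.499 and 1.56 in replicate 2. The 7 mESC markers summed to 391 FPKM in replicate 1 and 169 FPKM in replicate 2, and the 5 neuron markers to 375 and 255 FPKM. The 7 progenitor markers summed to 662 and 702 FPKM. The part of these differences in the *Pax2* and *Pax8* values was not tested. These genes were named after their values were seen.

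The rise from day 0 to day 6 differed between genotypes for *Pax3*, by -2.55 ± 0.35 (SE), and for *Pax6*, by -1.38 ± 0.29 (SE), in the test of the interaction itself (limma adjusted p = 0.0243 and 0.0491). Both were smaller rises in *Pcgf5*-/- cells, 2 of the 5 genes tested, and 1.75% of all genes tested had an interaction called in that direction. The interaction of *Pax7* was -1.45 ± 0.32 (SE), just outside the threshold (limma adjusted p = 0.0541), and those of *Pax2* and *Pax8* were -1.01 and 0.63 (limma adjusted p = 0.248 and 0.434). These calls were close to the limit of the design. *Pax3* lost its call without wild type replicate 2 (0.104) or *Pcgf5*-/- replicate 2 (0.0798) of day 0, without either *Pcgf5*-/- library of day 6 (0.105 and 0.0660), or with all expressed genes tested (0.0563). *Pax6* kept it in 5 of 16 alternatives (adjusted p up to 0.170 in the others).

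Since neural progenitor markers were lower as well in *Pcgf5*-/- cells, each PAX gene was also set against neural progenitor markers in the same library. All 7 progenitor markers fell at day 6, by log2 differences of -1.67 to -0.999, and all 7 mESC markers rose, with a median of 2.04. Summed, the progenitor markers had 662 and 702 FPKM in wild type against 299 and 285 without *Pcgf5*, and the mESC markers 391 and 169 against 1099 and 1022. The 5 neuron markers all had lower fitted values, from -2.43 to -0.955 with a median of -1.44, and 3 were called lower. *Dcx* and *Map2* were not called (limma adjusted p = 0.0533 and 0.0785). Of 7 feeder markers 0 were called by limma, with *Col1a1* and *Col3a1* at an unadjusted p under 0.05. The part of the mix of cells in the PAX values was not tested. *Sox1*, an early marker of neurectoderm, had 50.3 and 67.9 FPKM in wild type against 22.7 and 28.3 in the knockout, a difference of -1.17 ± 0.23 (SE; limma adjusted p = 0.0138, and 0.101 without wild type replicate 2 or 0.0911 without *Pcgf5*-/- replicate 1). The *Pax6* difference falls inside the range of the progenitor markers, and that of *Pax3* lies outside it. *Pax3* is not alone there: *Ednrb* (-2.47), the neuron marker *Nefm* (-2.43), *Dbx1* (-2.12), *Dach1* (-1.90) and *Irx3* (-1.80) also lie below that range. Of the other neuron markers, *Dcx*, *Map2* and *Elavl3* lie inside it and *Tubb3* (-0.955) just above it.

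Relative to *Sox1*, the *Pax6* values of the genotypes overlapped and the *Pax3* values did not. *Pax6* stood at 120% and 97.0% of *Sox1* in wild type and at 115% and 105% in *Pcgf5*-/- cells. These ranges overlapped, with a log2 difference of 0.02 (exact permutation p = 1, n = 2 and 2). *Pax3* stood at 19.7% and 23.8% of *Sox1* in wild type and at 4.69% and 5.97% in *Pcgf5*-/- cells, a log2 difference of -2.03 (exact permutation p = 0.333, the smallest that 2 against 2 samples can give, two-sided). Against *Sox3*, *Nes* and the geometric mean of the 7 markers, the *Pax3* difference was -2.22, -1.78 and -1.87, and the *Pax6* difference was -0.17, 0.28 and 0.19. The genotypes did not overlap in any of these 6 ratios (exact permutation p = 0.333 each), so the overlap of *Pax6* holds against *Sox1* alone, and its sign changes with the marker. Set directly against *Pax6*, *Pax3* was 16.5% and 24.5% in wild type and 4.09% and 5.70% in *Pcgf5*-/- cells. These ratios are within a library, so they do not change with the scaling between libraries, and they were added after the data had been seen.

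The remaining genes gave ratios that depended more on the marker or the replicate. *Pax7* stood at 13.9% and 11.4% in wild type and at 6.54% and 10.1% in *Pcgf5*-/- cells, a log2 difference of -0.63. Against *Sox3* its difference was -0.82, also without overlap, and against *Nes* and the 7 markers its ranges overlapped. The *Pax2* ranges overlapped against every marker used. *Pax8* went from 3.63% and 0.466% of *Sox1* to 9.56% and 8.68%, a log2 difference of 2.81 that lay between 2.62 and 3.06 against the other markers. It rests in large part on wild type replicate 2, since without that library it was 1.33 against *Sox1*. For both *Pax7* and *Pax8* against *Sox1* the exact permutation p was again 0.333. The make-up of the PAX genes shifted accordingly: *Pax3* went from 11.4% and 17.3% of their summed FPKM to 3.26% and 4.41%, and *Pax8* from 2.09% and 0.340% to 6.64% and 6.41%, while *Pax6* rose to 79.6% and 77.4% of a smaller sum (32.6 and 38.3 FPKM).

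**Figure D3:**
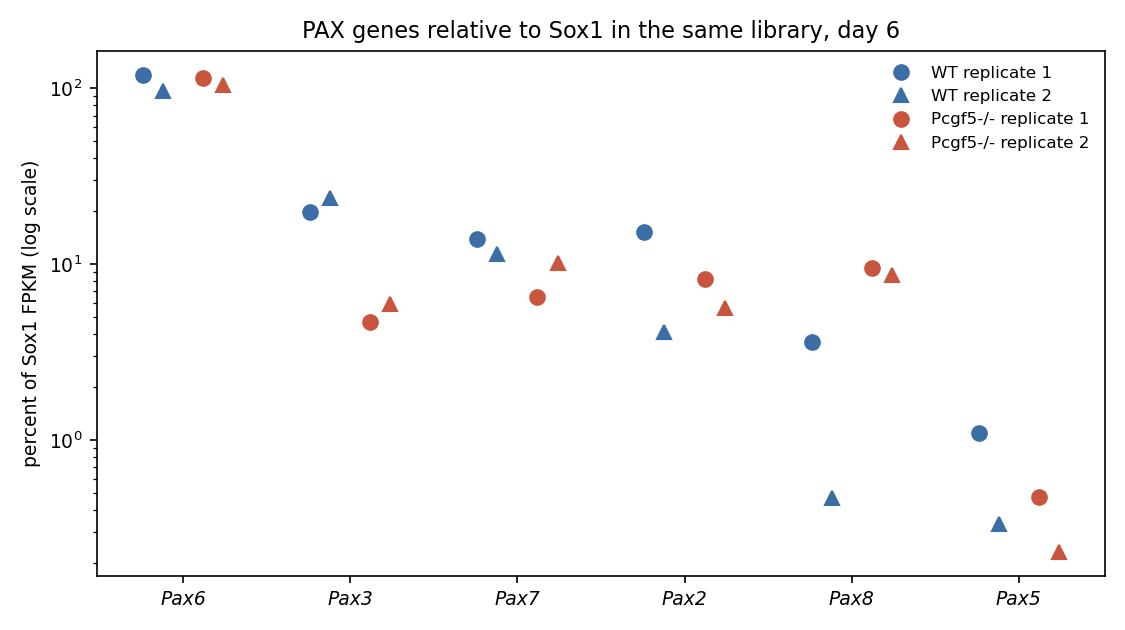
FPKM of each PAX gene as a percent of the Sox1 FPKM of the same library at day 6, on a log axis, in wild type (blue) and Pcgf5-/- (red) libraries with circles for replicate 1 and triangles for replicate 2. Pax6 lies near 100% in the 4 libraries, Pax3 falls from about 20% to about 5%, and Pax8 lies higher in both Pcgf5-/- libraries.

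Genes that work with or downstream of the PAX proteins were described by lists of the genes known for each role. Of 6 known PAX6 target genes 5 were tested, and 3 were lower at day 6 in *Pcgf5*-/- cells. Among all genes tested 7.05% were called lower, and the list median was -0.85. The 3 genes were *Fabp7*, a fatty acid-binding protein of radial glia (-1.67 ± 0.33, SE), *Sfrp2*, a secreted modulator of WNT signalling (-1.23 ± 0.23), and the proneural factor *Neurog2* (-0.85 ± 0.25). They had limma adjusted p = 0.0145, 0.0130 and 0.0488. The *Neurog2* call was lost under 11 of 16 alternatives. This gene entered the test only through its wild type level at day 6, so the filter favoured a lower value in the knockout. *Fabp7* is also among the 7 progenitor markers. *Eomes*, which is used in cortical progenitors as well as in mesendoderm, had 1.10 and 0.494 FPKM in wild type against 4.42 and 1.62 in the knockout (1.09, limma adjusted p = 0.0711). Of the 8 genes of the eye field and forebrain only 3 were tested and 0 were called, with *Otx2* highest (1.37, limma adjusted p = 0.0603).

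Some dorsal and neural crest genes were lower beside *Pax3* and *Pax7*, and others of the list were not. Of 18 listed, 12 were tested and 3 were lower, where 7.05% of all genes tested were, with a list median of -0.14. *Ednrb*, the endothelin receptor of neural crest and of radial glia, fell from 48.5 and 58.0 FPKM to 8.75 and 8.71 FPKM (-2.47 ± 0.18, SE; limma adjusted p = 0.00258). *Zic1* and *Msx2*, transcription factors of the dorsal neural tube, differed by -1.21 and -0.91 (limma adjusted p = 0.0197 and 0.0308). *Zic1* entered the test only through its wild type level at day 6, so the filter favoured a lower value in the knockout. *Olig3*, a factor of dorsal progenitors, had 4.59 and 5.14 FPKM in wild type against 5.37 and 5.55 in the knockout (0.14, limma adjusted p = 0.654). *Zic5*, *Foxd3* and *Mitf* had higher fitted values in the knockout, by 1.09, 0.99 and 0.61, and were not called (limma adjusted p = 0.0906, 0.137 and 0.0506). *Snai2* differed by 0.10, and *Msx1*, *Ets1*, *Ret* and *Tfap2a* lay between -0.40 and -0.05, also not called. *Sox10*, a marker of migrating crest cells, stayed at or under 0.161 FPKM in all libraries.

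Among the lists tied to PAX roles, only that of the intermediate neural tube, where PAX6 is also used, had every gene called. All 7 progenitor markers were called lower as well, and all 7 mESC markers higher. *Dbx1*, a homeobox factor of progenitors in the middle of the spinal cord, was listed at 0 in all day 0 libraries and had 95.4 and 71.1 FPKM in wild type at day 6 against 13.1 and 24.9 FPKM in *Pcgf5*-/- cells (-2.12 ± 0.29, SE; limma adjusted p = 0.00564). *Irx3* and *Dbx2* were lower as well, by -1.80 and -0.65 (limma adjusted p = 0.0104 and 0.0491). Thus 3 of 3 were called lower, where 7.05% of all genes tested were. The *Dbx2* call was lost under 13 of 16 alternatives. Of 9 ventral factors, which border the domains of PAX6, PAX3 and PAX7 on the other side, 7 were tested. *Nkx6-1* alone was lower (-1.17, limma adjusted p = 0.0209), where 7.05% of all genes tested were, with a list median of -0.21. *Shh*, the ventral signal, did not exceed 0.631 FPKM in any library.

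All 7 genes of the midbrain-hindbrain boundary, where PAX2, PAX5 and PAX8 act, were tested and 0 were called, between -0.64 for *Wnt1* and 0.99 for *Gbx2*, with a list median of 0.08 (limma adjusted p = 0.349 and 0.364). Of 10 genes of the retinal determination network, whose products act with PAX proteins in the eye, ear, kidney and muscle, 8 were tested. *Dach1* fell from 11.7 and 8.997 FPKM to 1.48 and 2.67 FPKM (-1.90 ± 0.23, SE; limma adjusted p = 0.00434). *Six4* went the other way, with 6.91 and 5.42 FPKM against 22.1 and 10.2 FPKM (1.17 ± 0.31, SE; limma adjusted p = 0.0382). Of 13 cofactors and binding partners of PAX proteins 12 were tested, and 1 was higher, where 9.57% of all genes tested were. It was *Tle5*, a member of the Groucho family (0.86 ± 0.18, SE; limma adjusted p = 0.0165). *Tle1*, *Tle3* and *Tle4* of that family were not called (-0.12, -0.43 and 0.35, limma adjusted p = 0.681, 0.150 and 0.317). *Paxip1*, which links PAX2 to a histone H3K4 methyltransferase complex, had 15.2 and 15.8 FPKM in wild type against 15.2 and 12.8 in the knockout at day 6 (-0.14, limma adjusted p = 0.524).

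Across these lists 14 genes were called at day 6, and *Ednrb*, *Dbx1* and *Dach1* kept the call under every alternative run. The other 11 lost it under at least 1 alternative. Leaving out *Pcgf5*-/- replicate 1 of day 6 ended 10 of the 14 calls, wild type replicate 2 ended 9, and wild type replicate 1 or *Pcgf5*-/- replicate 2 ended 6 each, with adjusted p-values between 0.0562 and 0.213. Leaving out any of the day 0 libraries ended 3 (0.0547 to 0.0717).

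**Figure D4:**
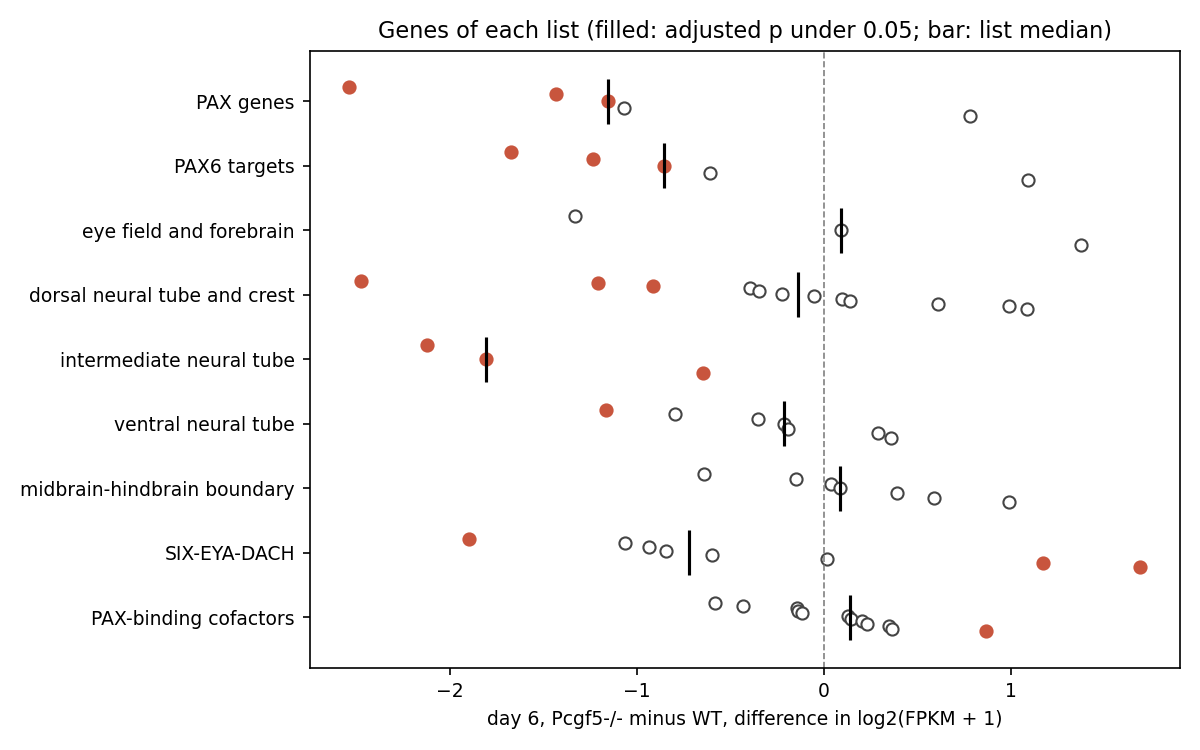
Difference in log2(FPKM + 1) at day 6, Pcgf5-/- minus wild type, for the tested genes of each list, filled where the limma adjusted p is under 0.05, with a bar at the list median. The PAX6 targets (median -0.85) and the intermediate neural tube genes (-1.80) lie to the left, and the midbrain-hindbrain boundary genes (0.08) lie around 0 with no filled point.

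Among markers of other tissues that use PAX genes, most of those of muscle, thyroid and pancreas were near the floor, and several of the kidney and B cell lists were not. The muscle factors *Myf5* and *Myod1* did not exceed 0.166 FPKM, and the thyroid gene *Tg* did not exceed 0.106 FPKM. *Meox1* of early muscle precursors had 0.537 and 0.401 FPKM in wild type at day 6 against 2.74 and 1.03 in the knockout (0.91, limma adjusted p = 0.0564). The pancreatic hormone genes *Ins1* and *Gcg* were listed at 0 in all 8 libraries. In the kidney list *Wt1* had 2.05 and 0.499 FPKM in wild type against 7.28 and 2.09 in the knockout at day 6 (1.24, limma adjusted p = 0.115), and the 4 kidney genes summed to 8.80 and 3.26 FPKM against 11.9 and 5.66. *Lhx1* and *Gata3* of that list reached 4.38 and 2.93 FPKM. Of the 3 B cell genes tested *Cd79b* was higher (1.14, limma adjusted p = 0.0103), where 9.57% of all genes tested were. *Ebf1*, which is also used in neurons, had 12.1 and 7.91 FPKM in wild type at day 6 against 7.52 and 7.76 in the knockout. The part of such cells in the *Pax8* and *Pax2* values was not tested.

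The other PAX rows of the files added little. *Pax4* and *Pax6os1*, a transcript antisense to *Pax6*, were listed at 0 in all libraries, *Pax1* stayed at or under 0.169 FPKM, and *Pax9* rose to 0.390 FPKM at most. The sources used here do not say that the counting used strand, so reads of *Pax6* and of its antisense transcript may not be told apart.

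The genes most like each PAX gene were found by Pearson's r of log2(FPKM + 1) over the 8 libraries. These share the rise from day 0 and therefore give high values for many genes. A step between genotypes or replicates shared with the PAX gene follows from this choice and is no separate result. For *Pax6* these were *Bmf*, *Grip1*, *Sox11*, *Zfp608* and *Zfp113*, with *Bmf* first (r = 0.999). *Sox11*, a SOX factor of immature neurons and progenitors, had 97.9 and 85.4 FPKM in wild type against 35.9 and 41.0 in the knockout at day 6. For *Pax3* they were *5330434G04Rik*, *Ikbkb*, *B3gat1*, *Ebf4* and *Lsamp*. The first of these had 1.80 and 2.55 FPKM in wild type against 0.306 and 0.537 in *Pcgf5*-/- cells. Its step between genotypes and its higher value in replicate 2 are the likeness to *Pax3* for which it was picked. For *Pax7* they were *Kirrel3*, *Pkia*, *Arhgap33*, *Hes3* and *Slc8a1*, where *Hes3*, a HES repressor of neural progenitors, had 14.3 and 17.0 FPKM against 2.43 and 3.56 FPKM.

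The nearest genes of *Pax2* were *Dcx*, *Rgs8*, *Scrt2*, *Nhlh2* and *Add2*. *Dcx*, a microtubule-binding protein of young neurons, had 16.7 and 5.14 FPKM in wild type against 3.48 and 2.30 in the knockout, with the same gap between wild type replicates as *Pax2* (r = 0.999). *Pax8* stood apart, with its nearest genes *Cryba1*, *Pim2*, *Bcl11a*, *Gad2* and *Ptpn3* at an r of 0.976 or less. *Pim2*, a kinase, had 41.3 and 14.8 FPKM in wild type against 78.1 and 54.5 in the knockout, so like *Pax8* it was lowest at day 6 in wild type replicate 2. Here too the genes were picked for this likeness, so the shared gaps between libraries follow from the choice.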

How the data were processed

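Polyadenylated RNA of 8 samples was sequenced. According to the submitters' processing notes and the methods, the authors aligned reads to mm9 with TopHat2 (2.0.4) and computed FPKM with Cufflinks (2.1.1), and the deposited FPKM values, which correct for library size and transcript length, were used as they stand. Before alignment they trimmed the reads and dropped identical copies, which can lower abundant transcripts. FPKM give no fragment numbers, so that depth is known only in relative terms, and a low value rests on few fragments.

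The 13214 genes whose mean passed 1 FPKM in any group were analysed as log2(FPKM + 1) in 1 fit of all 8 samples with limma (3.58.1, with trend, R 4.3.3). P-values were two-sided and adjusted by Benjamini-Hochberg over all genes tested, with a threshold of 0.05, and no replicate block was used. The fit was tested on simulated data for the day 6 comparison over 13214 genes, with normal noise of the fitted spread. Changes were set in 200 genes, fewer than the 2197 called in the data. It recovered 93.6% of 4-fold and 59.9% of 2-fold changes of FPKM + 1, and 5.58% of its calls fell on unchanged genes. For low genes such changes are not the same fold in FPKM, so these shares are not measured for the PAX genes. Scaling by quantiles in place of FPKM moved the median of all genes by -0.12 at day 0, by -0.21 for the rise in wild type and by -0.10 for that in *Pcgf5*-/- cells. Genes named in the text are the 6 PAX genes, the other PAX rows, *Pcgf5*, and the 5 genes nearest to each PAX gene. From the lists they are members past the threshold or at the extremes, with some others added after the values were seen. Members and lists were chosen with earlier results of these data known. Some list members that enter the counts are not reported here by name. Promoter windows come from RefSeq (GRCm38.p6). Alternatives changed the pseudocount, the filter, the scaling, the trend, the block and the samples fitted.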

Additional observations from a re-analysis of the deposited data

Results flagged for a closer look

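The smaller rise of *Pax3* and *Pax6* in *Pcgf5*-/- cells was singled out because the effect of 6 days of differentiation differed between genotypes in the test of the interaction. For *Pax3* the interaction was -2.55 on the log2(FPKM + 1) scale (limma adjusted p = 0.0243), and both *Pcgf5*-/- libraries of day 6 lay below both wild type libraries. For *Pax6* it was -1.38 (limma adjusted p = 0.0491). Groups of 2 samples were not tested for single samples that stand apart.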

How the results depend on the processing

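Of the values of the PAX genes under the alternatives, 306 kept their direction and their side of the threshold, 35 were no longer past it, 6 came to pass it and 1 reversed: the *Pax6* difference at day 0 ran from -0.0088 (without wild type replicate 2) to 0.45 (without replicate 1). The number of PAX genes called at day 6 was 3, and ran from 1 (without *Pcgf5*-/- replicate 1) to 4 with a library left out. The number called higher in *Pcgf5*-/- cells from day 0 to day 6 was 5, and ran from 2 to 5 with a library left out. The number with a called interaction was 2. It was 1 with a pseudocount of 0.1 or 0.5, 0 with all genes over 0 FPKM tested, which raises the number of tests, from 0 to 2 with a library left out, and 3, with *Pax7*, under quantile scaling, without the trend or with a block for each day. No PAX gene was called at day 0 under any alternative run. Leaving out a library leaves a lone sample in its group, which is then assumed to vary like the others. The replicate numbers were not stated to pair the samples. The difference between replicates 1 and 2 correlated across genes at 0.39 between the genotypes at day 6 and at 0.10 at day 0. With the replicate block the interaction was called for *Pax3* but not for *Pax6* (adjusted p = 0.0582), 1 PAX gene in all, the day 6 count stayed at 3, and with a block for each day *Pax2* was called as well (adjusted p = 0.0380). Of the other named genes, 204 values stayed on their side of the threshold, 64 did not and 0 reversed. Over all genes, calls at day 6 were 2197 and ran from 297 (without *Pcgf5*-/- replicate 1) to 3235 (a block for each day), calls at day 0 were 44 and ran from 0 (only the groups compared) to 282, rises and falls in wild type were 6668 (4702 to 7069) and in *Pcgf5*-/- cells 4271 (2367 to 4584), and interactions were 408 (4 to 1167). *Pax8* was not in the table with the higher filter, so it has no value there. With 2 samples a group, no exact test can go below 0.333, and FPKM values near 0 do not show whether a gene was absent.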
